A study of Arabidopsis thaliana with 4 samples.

Results

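The genes described here are the FRIGIDA complex and a set of chromatin factors that keep the flowering repressor FLC active. They were taken as the 10 listed loci FRI, FRL1, FES1, SUF4, FLX, ELF7, VIP5, EFS, PIE1 and ARP6, and all 10 were found among the 33602 genes of the tables. RNA came from whole seedlings of Arabidopsis thaliana at 12 das, the age unit used in the labels. The overexpressor is a transgenic plant line, number 7, described in the labels as overexpressing the short reading frame sORF1511, and it was compared with Col-0, the wild type (WT). Each genotype had 2 libraries, called biological replicates in the labels, and each library was a pool of 5 seedlings. With 1 transgenic line, what the insertion or the line itself does and what the transgene does cannot be told apart. The promoter of the transgene is not given in the labels, and the sORF1511 transcript was not analysed here, so its overexpression was not checked in these libraries.

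FLC encodes a MADS-box protein that represses the floral integrators, and its transcript level is set by opposing groups of regulators. FRI is a scaffold protein that assembles with FRL1, FES1, SUF4 and FLX at the FLC promoter and recruits general transcription and chromatin factors there. Among these factors are the PAF1 complex, which travels with RNA polymerase II, the histone H3 lysine methyltransferase EFS, and the SWR1 complex, which places the histone variant H2A.Z in nucleosomes. Loss of any of the chromatin factors lowers FLC and leads to early flowering. Col-0 carries a natural loss-of-function allele of FRI, so its FLC level is low compared with accessions that need vernalization. Read counts measure the FRI transcript and do not show the activity of its protein.

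None of the 10 genes differed between the overexpressor and WT past the threshold, a p below 0.05 from edgeR's quasi-likelihood fit after Benjamini-Hochberg adjustment over all genes. In that test 29 of 19474 genes passed, a share of 0.149%. The fitted fold of overexpressor over WT lay between 0.852 for FRL1 and 1.25 for FLX, with 5 genes at positive and 5 at negative values and a median log2 fold change of -0.01, against -0.01 over all genes tested. Every one of the 10 95% intervals held 0, and all 10 lay inside a 2-fold rise and a 2-fold fall. FLC itself had a log2 fold change of -1.43 with a 95% interval of -2.01 to -0.85 (edgeR, Benjamini-Hochberg adjusted p = 0.0914; DESeq2, adjusted p = 0.00032), and the intervals of all 10 activators lay above -1.43 (9 of 10 above the FLC value of the same fit without overexpressor replicate 2, where the lower bound of FRL1 was -1.49). Of the 10 intervals, 9 did not overlap that of FLC, and the exception was FRL1, the gene with the fewest reads.

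The libraries differed in depth and composition. Total estimated reads ran from 13974460 to 25740234, and reads of nuclear genes from 9541345 in WT replicate 1 to 25478075 in overexpressor replicate 2. Chloroplast ribosomal RNA took 28.1% of the reads of WT replicate 1 and between 0.956% and 1.29% in the other libraries. The 10 genes together had 4054 and 5590 reads in the overexpressor and 2288 and 5929 reads in WT, and a floor of 3 reads equals 0.108 to 0.268 CPM. Levels are given as CPM, read counts relative to a library size that TMM scaling adjusts for composition. A positive log2 fold change (± SE) means a higher level in the overexpressor, and n = 2 libraries per genotype throughout. All 10 genes passed the filter on low counts.

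**Figure D1:**
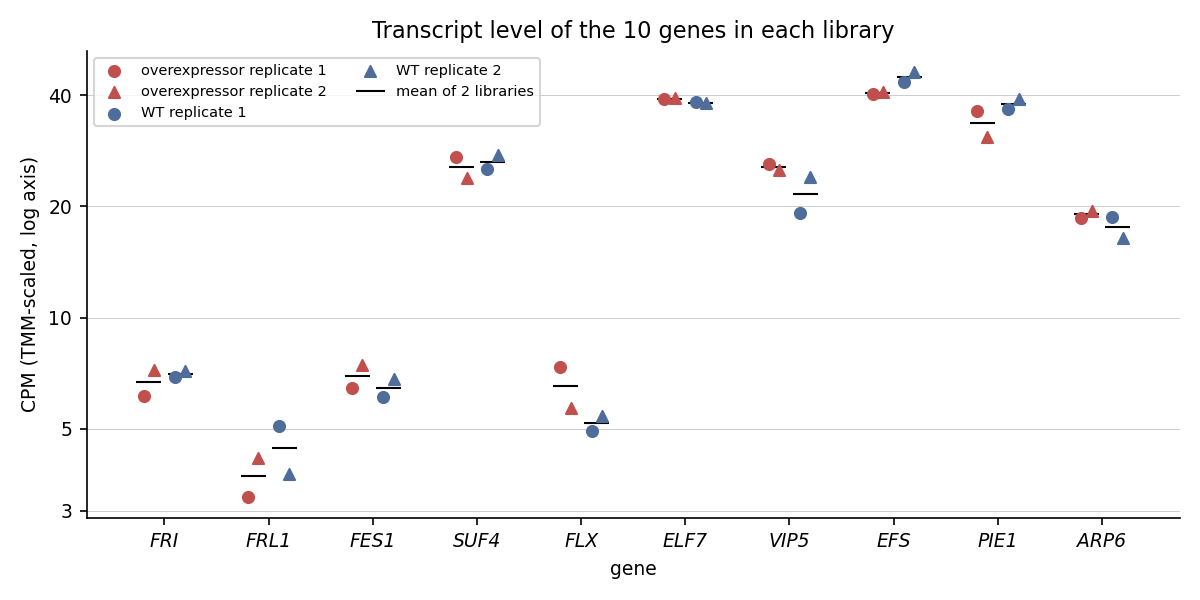
CPM of each gene (log axis) in the 2 overexpressor libraries (red) and the 2 WT libraries (blue), with replicate 1 as a circle, replicate 2 as a triangle and the mean of each genotype as a black line. ELF7 is almost level over all libraries, between 38.1 and 39.2 CPM, while FRL1, the lowest gene, spreads from 3.28 to 5.10 CPM.

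The core of the FRIGIDA complex was described first. FRI (AT4G00650), the scaffold, had 6.14 and 7.22 CPM in the overexpressor, against 6.88 and 7.16 CPM in WT. The overexpressor libraries enclosed both WT values, so the genotypes overlapped fully. The log2 fold change was -0.07 ± 0.17, with a 95% interval of -0.50 to 0.36. FRL1 (AT5G16320), a FRI-like protein needed for FRI to raise FLC, had 3.28 and 4.16 CPM in the overexpressor, against 5.10 and 3.76 CPM in WT. Its WT libraries stood 0.44 apart on the log2 scale, with replicate 1 the higher, which was more than the difference between genotypes of -0.23 ± 0.26 (interval -0.90 to 0.44). At 63 and 114 reads in the overexpressor and 57 and 104 reads in WT, FRL1 had the widest interval of the 10.

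FES1 (AT2G33835), a CCCH zinc finger protein that FRI requires to raise FLC, had 6.45 and 7.44 CPM in the overexpressor, against 6.08 and 6.84 CPM in WT. Replicate 2 was the higher library in each genotype and the groups overlapped. The log2 fold change of FES1 was 0.10 ± 0.17 (interval -0.34 to 0.54). SUF4 (AT1G30970), the C2H2 zinc finger protein that binds DNA at the FLC promoter for the complex, had 27.3 and 23.9 CPM in the overexpressor, against 25.2 and 27.5 CPM in WT. Here the overexpressor held the lowest library and WT the highest, and the other pair lay between them. The difference of SUF4 was -0.05 ± 0.12 (interval -0.35 to 0.26).

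FLX (AT2G30120), a coiled-coil protein with transcriptional activation activity in the complex, had 7.33 and 5.69 CPM in the overexpressor, against 4.92 and 5.42 CPM in WT. Both overexpressor libraries lay above both WT libraries, but overexpressor replicate 2 exceeded WT replicate 2 by little. The log2 fold change was 0.32 ± 0.21 (interval -0.20 to 0.85), the highest fitted value among the 10 genes. With overexpressor replicate 1 left out the value was 0.15, and with overexpressor replicate 2 left out it was 0.50. FLX and EFS were also the genes whose deposited length, an average over transcripts where it is not whole, changed between libraries. For FLX it was 1059 and 1109 bases in the overexpressor and 1082 and 1120 bases in WT, lower in replicate 1 of each genotype, and for EFS it was 5791 bases in 3 libraries and 5788 bases in overexpressor replicate 2. The length of FLX thus followed the replicate number and overlapped between genotypes.

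Of the PAF1 complex, 2 subunits are members. ELF7 (AT1G79730), the plant counterpart of yeast PAF1, had 39.1 and 39.2 CPM in the overexpressor, against 38.3 and 38.1 CPM in WT. The groups did not overlap, but they stood close together, with a log2 fold change of 0.04 ± 0.09 and an interval of -0.18 to 0.26. VIP5 (AT1G61040), the counterpart of yeast RTF1, had 26.0 and 25.1 CPM in the overexpressor, against 19.2 and 24.1 CPM in WT. WT replicate 1 was the low library, and WT replicate 2 lay close under the overexpressor pair. The difference of VIP5 was 0.23 ± 0.14 (interval -0.13 to 0.59). Without WT replicate 1 it was 0.10, and without WT replicate 2 it was 0.41.

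EFS (AT1G77300), also known as SDG8, methylates lysine 36 of histone H3 along transcribed genes. It had 40.4 and 40.9 CPM in the overexpressor, against 43.5 and 46.2 CPM in WT. Both overexpressor libraries lay below both WT libraries, at a log2 fold change of -0.14 ± 0.09 and an interval of -0.37 to 0.08. PIE1 (AT3G12810), the ATPase of the SWR1 complex, had 36.3 and 30.8 CPM in the overexpressor, against 36.7 and 39.0 CPM in WT. Overexpressor replicate 1 was nearly as high as WT replicate 1, and overexpressor replicate 2 stood apart at the low end. The difference of PIE1 was -0.17 ± 0.12 (interval -0.47 to 0.13), or -0.28 without overexpressor replicate 1 and -0.05 without overexpressor replicate 2. ARP6 (AT3G33520), an actin-related subunit of the same complex, had 18.6 and 19.5 CPM in the overexpressor, against 18.7 and 16.4 CPM in WT. WT replicate 1 lay between the overexpressor libraries, and WT replicate 2 was lower. The log2 fold change of ARP6 was 0.12 ± 0.12 (interval -0.19 to 0.44). Leaving out WT replicate 1 gave 0.23, and leaving out WT replicate 2 gave 0.03.

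**Figure D2:**
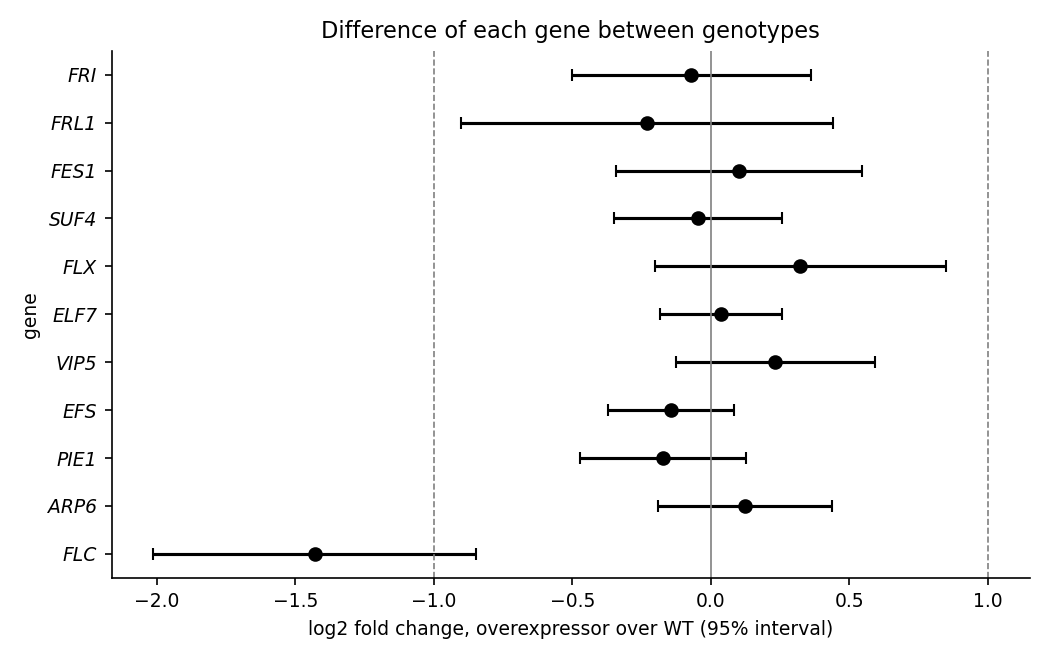
Log2 fold change of overexpressor over WT (point) with its 95% interval from edgeR (bar) for each gene and, at the bottom, FLC. Dashed lines mark a 2-fold fall and a 2-fold rise, and the 10 activators lie between them, while the interval of FLC runs from -2.01 to -0.85.

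The activators were then set against the background of all genes tested. With no adjustment for multiple tests, 0 of the 10 had a p below 0.05 in edgeR's test, whereas 11.9% of all genes had such a p at higher and 9.81% at lower values in the overexpressor. The smallest adjusted p of the 10 was 0.382, for VIP5 (edgeR, Benjamini-Hochberg). DESeq2, which called 5.1% of all genes, and limma-trend, which called 1.41%, also gave 0 of 10, both adjusted and unadjusted. The libraries of the genotypes did not overlap for FLX, ELF7 and VIP5 on the higher side, against 28.7% of all genes, and for EFS and PIE1 on the lower side, against 28.4%. The median absolute log2 fold change was 0.13 over the 10 genes and 0.24 over all genes tested, and 100% of the 10 against 78.8% of all genes stayed under 0.5. A small median was not particular to the 10, since it was 0.11 over the 36 tested genes of the further pathway lists described below. For 8 of the 10 genes, the gap between the 2 libraries of at least 1 genotype was larger than the fitted difference between genotypes.

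The levels of the 10 genes differed from each other far more than between genotypes. To compare genes, CPM was divided by effective length in kb. On this scale the mean over the 4 libraries was highest for ELF7, at 20.8 CPM per kb, and lowest for FRL1, at 2.99, a 6.97-fold span. SUF4 followed ELF7 at 18.1, then ARP6 at 13.9, VIP5 at 10.7, EFS at 7.59, FLX at 6.26, PIE1 at 5.33, FRI at 3.72 and FES1 at 3.19 CPM per kb. The ranges over the 4 libraries separated each of ELF7, SUF4, ARP6 and VIP5 from the next gene in the order, and PIE1 from FRI. Ranges overlapped between EFS and FLX, between FLX and PIE1, and among FRI, FES1 and FRL1, so the order within those groups was not beyond the spread. Among all genes tested, ELF7 stood at percentile 73.0 of this level and FRL1 at percentile 22.6.

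**Figure D3:**
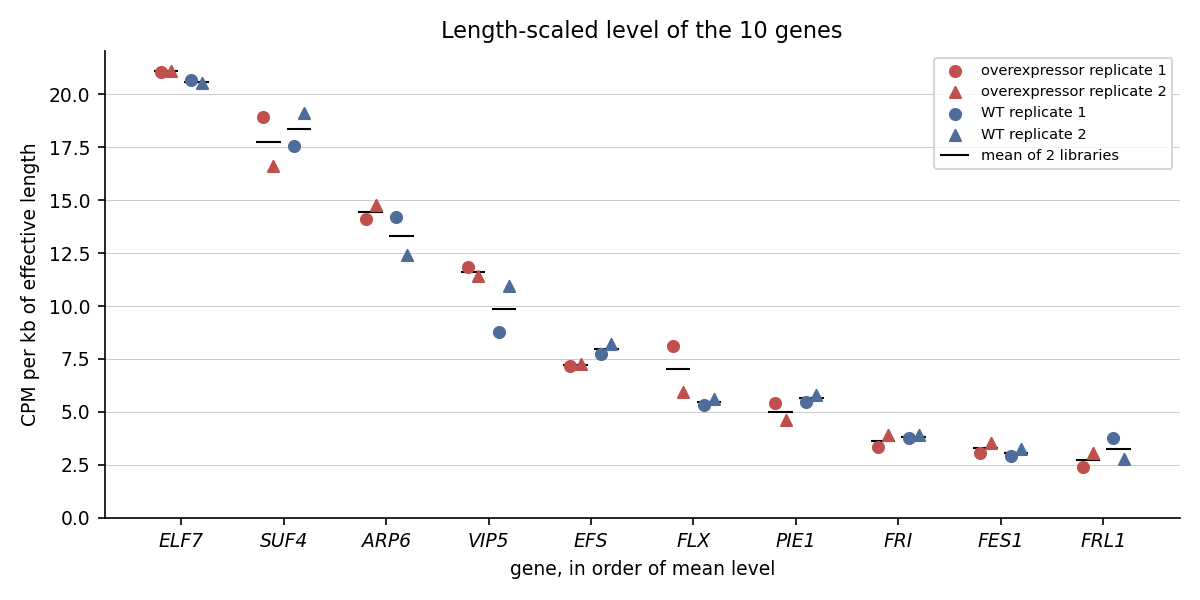
CPM per kb of effective length for the 10 genes in order of their mean, with overexpressor libraries in red left of WT libraries in blue, circles for replicate 1, triangles for replicate 2 and black lines for the mean of each genotype. The fall from ELF7 at 20.8 to FRL1 at 2.99 exceeds the distance between genotypes within any gene.

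Within the FRIGIDA complex the transcripts of the DNA-binding subunit were the most abundant. The ratio of SUF4 to FRI on the length-scaled level was 5.68 and 4.23 in the overexpressor, against 4.69 and 4.91 in WT. FRI, FES1 and FRL1 were near each other, with FES1 at 0.921 and 0.903 of FRI in the overexpressor and 0.774 and 0.836 of FRI in WT. The ratio of FLX to FRI was 2.43 and 1.52 in the overexpressor, against 1.42 and 1.45 in WT, and overexpressor replicate 1 stood apart. In the PAF1 complex, ELF7 exceeded VIP5 by 1.78-fold and 1.85-fold in the overexpressor and by 2.36-fold and 1.87-fold in WT. In the SWR1 complex, ARP6 exceeded PIE1 by 2.60-fold and 3.21-fold in the overexpressor and by 2.59-fold and 2.13-fold in WT. With 2 libraries per genotype, no exact permutation test of such a ratio can pass 0.05, so these ratios are given as values.

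Further genes of the same pathways were taken from 6 lists of 37 genes, of which 36 passed the filter. Of these 36, 0 were called over all genes by edgeR, DESeq2 or limma-trend, and the median log2 fold change was -0.02. Over all genes tested, 9440 had positive and 10034 negative values, and among the 36 there were 12 and 24. At an unadjusted p below 0.05, 0 were higher and 3 lower in the overexpressor (edgeR), no more than the share of 9.81% lower over all genes would give among 36. These 3, singled out after their values were seen, were FRL4B, a FRI-like gene, at -0.43 ± 0.13 (-0.27 without WT replicate 2), MBD9, a methyl-CpG-binding-domain protein that works with SWR1, at -0.33 ± 0.10, and ATXR7, a histone H3 lysine 4 methyltransferase that promotes FLC, at -0.42 ± 0.12. The smallest adjusted p among them was 0.168 (edgeR, Benjamini-Hochberg).

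Among the relatives of FRI and FLX, 8 of 9 genes were tested, with a median of -0.08. FLL4, an FLX-like protein that also promotes FLC, was at the upper end with 0.38 ± 0.23 (0.23 with WT replicate 1 left out, 0.59 with WT replicate 2 left out), and FRL4B at the lower. FRL5 had 5 reads in the overexpressor and 3 reads in WT and was not tested. The other subunits of the PAF1 complex had a median of 0.09 over 4 genes, from -0.21 ± 0.16 for CDC73 to 0.25 ± 0.16 for VIP4. VIP4 had 61.7 and 60.8 CPM in the overexpressor, against 43.7 and 58.9 CPM in WT, and as for VIP5 the low library was WT replicate 1. With WT replicate 1 left out VIP4 had 0.07 and CDC73 -0.35. With WT replicate 2 left out CDC73 had -0.03 and VIP4 had 0.49, where it was called (edgeR, Benjamini-Hochberg adjusted p = 0.0454).

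The list of further SWR1 subunits, partners and H2A.Z genes had a median of -0.02 over 12 genes. The H2A.Z genes HTA8, HTA9 and HTA11 had log2 fold changes of -0.01 ± 0.17, -0.03 ± 0.09 and -0.06 ± 0.10, or 0.14, 0.10 and 0.07 with scaling by library size only, and all 3 were also positive with WT replicate 1 left out. The ends of the list were SWC6, a zinc finger subunit, at -0.48 ± 0.25, and TAF14, a YEATS-domain protein whose level was between 0.780 and 1.06 CPM, at 0.21 ± 0.38 (-0.03 without overexpressor replicate 2). The histone H3 lysine 4 methylation list had a median of -0.31 over 6 genes, with 5 at negative values, from -0.44 ± 0.28 for WDR5A, a WD40 core subunit, to 0.02 ± 0.13 for RBL. For WDR5A the value followed WT replicate 1, at 9.12 CPM against 5.57 CPM in WT replicate 2 and 5.15 and 5.51 CPM in the overexpressor, and it was -0.05 with that library left out. The histone H2B ubiquitination list spanned -0.14 ± 0.11 for the conjugating enzyme UBC1 (-0.03 without WT replicate 2) to 0.13 ± 0.11 for the ligase HUB2 (0.05 without overexpressor replicate 1). The deposited length of HUB2 was 1631 and 1653 bases in the overexpressor, against 1876 and 1937 bases in WT. With effective length as an offset the value of HUB2 was 0.36 (edgeR, Benjamini-Hochberg adjusted p = 0.187), and with limma-trend on log2(TPM + 1) it was 0.40. The subunits of the nuclear cap-binding complex, which is needed for full FLC expression, stood at 0.11 ± 0.09 for CBP20 and 0.01 ± 0.11 for CBP80.

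**Figure D4:**
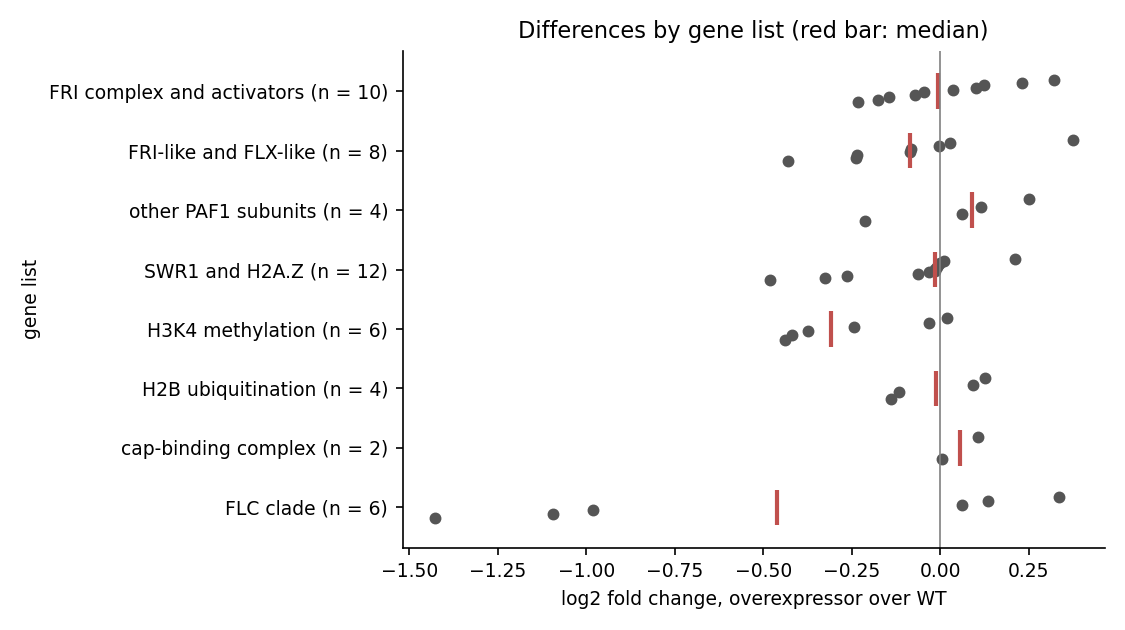
Log2 fold change of overexpressor over WT for each tested gene (grey point) of the 10 activators and of 7 further lists, with the median of each list as a red bar and the number of tested genes in brackets. The activator and pathway lists lie between -0.48 and 0.38, whereas 3 genes of the FLC clade lie at -0.98 or lower.

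The FLC clade, made up of FLC, FLM and MAF2 to MAF5, held the widest values of the pathway lists. FLC had 6.09 and 4.16 CPM in the overexpressor, against 12.6 and 14.7 CPM in WT. MAF4 and MAF5 had values of -1.09 ± 0.29 (-0.73 without WT replicate 1) and -0.98 ± 0.18. MAF2 and MAF3, which lie in the same tandem cluster, had 0.33 ± 0.16 (interval -0.09 to 0.76) and 0.06 ± 0.19 (interval -0.43 to 0.55). The value of MAF2 was 0.15 without WT replicate 1 and 0.58 without WT replicate 2, where it was called (edgeR, Benjamini-Hochberg adjusted p = 0.0369). Over all genes 0 of the 6 genes of the clade passed in edgeR's test and 1, FLC, in that of DESeq2, and at an unadjusted p below 0.05 there were 3 at lower and 0 at higher values, against 9.81% and 11.9% of all genes.

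The likeness of the expression patterns was measured as the root mean square difference of log2 CPM, centred on each gene's mean, over the 4 libraries and among 51 candidate genes. These candidates were the other members and the tested genes of the pathway lists, so a closest gene outside them could not be found. The closest gene to ELF7 was VIP6, another PAF1 subunit, at 0.033, and the closest to VIP5 was VIP4, at 0.041. PIE1 was closest to RIN1, an AAA ATPase of the same complex, at 0.045, and EFS to FRL3, at 0.039. FRI, FRL1 and SUF4 were closest to FLL2, FLL1 and FLL3, at 0.036, 0.068 and 0.056. FES1 was closest to CBP20 at 0.071, ARP6 to UBC2 at 0.065 and FLX to FLM at 0.12. The median distance to all candidates ran from 0.14 for ELF7 to 0.26 for FRL1. With 4 libraries these are descriptions only.

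The pools were whole seedlings, and in bulk RNA fewer cells of a type and less RNA per cell cannot be told apart. Both shoot and root were present, since mesophyll and root markers were detected. The 5 mesophyll markers summed to between 46763 and 50569 CPM in the overexpressor and between 41832 and 41881 CPM in WT. The 4 tested of 7 root endodermis markers summed to 5.10 and 6.02 CPM in the overexpressor and to 15.6 and 24.5 CPM in WT. All 4 had negative values, and for 3 the libraries did not overlap, against 28.4% of all genes on the lower side. MYB36 overlapped, at 0.676 and 0.255 CPM in the overexpressor and 0.626 and 1.81 CPM in WT. The root hair gene EXP7 had 1 and 5 reads in the overexpressor and 3 and 71 reads in WT, and COBL9 had 1 and 4 reads in the overexpressor and 1 and 58 reads in WT, so that WT replicate 2 alone stood above 5 reads. The defining endodermis gene CASP5 was at 0 reads in every library except WT replicate 2, which had 4. The 6 markers of dividing cells summed to 52.5 and 55.0 CPM in the overexpressor and 85.7 and 83.9 CPM in WT, with 6 of 6 at negative values and a median of -0.72. The part of these markers in the values of the activators and of FLC was not tested.

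All 40 estimated counts of the 10 genes were whole within 0.001, against 96.9% to 97.3% of the values of all 33602 genes in a library, untested genes included. In the RefSeq annotation of TAIR10.1, 7 of the 10 genes, all except FRL1, FLX and VIP5, overlap at least 1 other gene. The libraries were stranded, but whether the counting used strand is not given in the sources used here, so reads in those overlaps may be shared.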

How the data were processed

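Poly(A) RNA of whole seedlings was sequenced in 4 libraries, from 200 ng of RNA each with a stranded kit, per the labels' protocols. The authors deposited 1 table per library with an estimated count, TPM, length and effective length for each gene, per the file headers. Deposited TPM values have the same sum in each library, and that sum includes chloroplast ribosomal RNA. Which quantifier, build and gene annotation were used is not given in the sources used here, so no coordinates are printed. DESeq2 is named, with no version, per the submitters' processing notes. Gene names and overlaps came from RefSeq for TAIR10.1, with 32835 of 33602 identifiers matched.

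Estimated counts were rounded and tested with edgeR 4.0.16 in R 4.3.3 (filterByExpr with a minimum count of 10 and total of 15, TMM, glmQLFit, glmQLFTest, Benjamini-Hochberg over 19474 genes). The SE was the size of the unshrunk coefficient divided by the square root of F, and the 95% interval used edgeR's total degrees of freedom; intervals were not adjusted for the number of genes. Alternatives used DESeq2 1.42.0, limma 3.58.1 on log2(TPM + 1), other scalings and filters, the replicate number as a block, and each library left out in turn. The members, lists and tests were chosen with earlier results of these data known. The genes named are the 10 members, FLC, any called gene and the highest and lowest value of each list, and each member's closest gene. MAF3, MAF4, MAF5, the H2A.Z genes and those past an unadjusted p were added after their values were seen. The labels do not say whether replicates of a genotype came from separate plantings, so p-values measure the spread between these pools.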

Additional observations from a re-analysis of the deposited data

How the results depend on the processing

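In all 13 alternatives, 0 of the 10 activators passed an adjusted p of 0.05 in either direction, and VIP5 without WT replicate 2 had the smallest adjusted p, 0.0729 (edgeR, Benjamini-Hochberg). Leaving out each library in turn gave between 0 and 1 activators higher at an unadjusted p below 0.05 (VIP5 without WT replicate 2) and 0 lower. The sign changed in at least 1 alternative for FRI, FRL1, FES1 and SUF4, and in none for the other 6. With scaling by library size only FRI had 0.042 and SUF4 0.065, and with limma-trend on log2(TPM + 1) SUF4 had 0.019. Over the fits without 1 library, FRI ran from -0.191 (without overexpressor replicate 2) to 0.0517 (without overexpressor replicate 1), FRL1 from -0.446 (without WT replicate 2) to 0.00298 (without WT replicate 1), FES1 from -0.00115 (without overexpressor replicate 2) to 0.213 (without overexpressor replicate 1), and SUF4 from -0.130 (without overexpressor replicate 1) to 0.0519 (without overexpressor replicate 2). Scaling by library size only moved the median of all genes by 0.12 on the log2 scale and that of the activators to 0.11. The number of intervals inside a 2-fold rise and fall, an alternative chosen after seeing the data, was between 8 and 10 over the edgeR fits and was lowest at 8 without overexpressor replicate 2 and without WT replicate 2. The number of intervals above the FLC value of the same fit was 10 in each edgeR fit except that without overexpressor replicate 2, where it was 9. FRL1 and FLX supplied the widest bounds in each of these fits.

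In the FLC clade 1 gene, FLC, fell with DESeq2, with library size only and with no low-count filter, and leaving out each library in turn gave between 0 and 2 genes lower and between 0 and 1 higher (MAF2, without WT replicate 2). Without WT replicate 2, 1 further PAF1 subunit, VIP4, was called higher, and the range over the libraries left out was 0 to 1. The cause was not tested. Deviations of same-numbered libraries correlated at 0.0581 across genes, but 2 per genotype cannot settle pairing. The replicate block called 0 of 10 activators, with 9 intervals inside 2-fold. Over all genes, the 27 higher and 2 lower calls stayed at 27 and 2 with RLE scaling and were 26 and 2 with effective length as an offset. The calls became 912 and 307 with DESeq2, 570 and 239 with library size only, and 305 and 57 with no filter. Calls were 65 and 10 with at least 1 CPM in 2 libraries, 163 and 21 without organelle genes, 250 and 24 with limma-trend, and 329 and 43 with the block. They were 1 and 0 without overexpressor replicate 1, 0 and 0 without overexpressor replicate 2, 240 and 140 without WT replicate 1, and 1189 and 1014 without WT replicate 2. FRL1 had 57 to 114 and FLX 55 to 156 reads per library.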
